A study of Mus musculus with 3 samples.

Results

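The CXCR3 chemokine axis is the chemokine receptor gene *Cxcr3* with the genes of its ligands, *Cxcl9*, *Cxcl10* and *Cxcl11*. These 4 genes were listed by name, with earlier results of these data known. Of them, *Cxcl9*, *Cxcl10* and *Cxcr3* were analysed, 3 of the 32285 genes counted, and *Cxcl11* was not analysed here.

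CXCL9, CXCL10 and CXCL11 are small secreted proteins that interferon gamma induces in keratinocytes, fibroblasts and myeloid cells. They attract activated lymphocytes that carry CXCR3, chiefly CD8 T cells and type 1 helper T cells. In skin, the axis is known from T cell-rich inflammation, including that around the hair follicle in alopecia areata.

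The 3 libraries hold cells of dorsal skin from female C3H/HeN mice at 25 weeks of age, with 7 to 8 mice pooled per library before droplet-based 3′ single-cell RNA sequencing. Neg is the negative (vehicle) control, AA is the alopecia areata model, and AA+Ab is that model after treatment with a CXCL12-neutralizing antibody. In the study's methods, the model is made by transfer of lymph node cells, and the labels give no dose or schedule for the antibody. Comparing AA with Neg addresses how the skin of the model differed from control skin, and comparing AA+Ab with AA addresses how it differed under the antibody.

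The deposited values are counts of unique molecular identifiers (UMIs), each standing for 1 captured mRNA molecule. Neg held 6965 cell barcodes with 121289374 UMIs, AA 10879 with 137290217, and AA+Ab 10507 with 141998364. Cells with at most 10% mitochondrial UMIs and at least 200 genes were kept, which left 6582 cells in Neg, 10433 in AA and 9832 in AA+Ab, with medians of 13694.5, 11177 and 11371 UMIs. Neg and AA shared 18 cell barcodes, Neg and AA+Ab 17, and AA and AA+Ab 28. All 11 keratinocyte markers were found in every library, with summed levels of 15762, 19549 and 16767 UMIs per 1000000 UMIs (CPM) in Neg, AA and AA+Ab, and *Krt14* was the most abundant of them.

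Levels are UMIs of a gene over all UMIs of the same cells, in CPM, with exact 95% Poisson intervals in parentheses. Ratios of CPM have exact conditional 95% intervals and shares of cells exact Clopper-Pearson 95% intervals. Where 0 cells had a UMI, the share that this allows is given as 3 counts over the number of cells, which is narrower than the Clopper-Pearson limit. All of these cover counting error only, while the UMIs of the ligands were clumped in few cells. With 1 library per group there is no spread between replicates, no difference was tested, and library and group cannot be told apart. UMI counts from the 3′ end do not scale with gene length, so levels of different genes are set side by side in CPM.

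*Cxcl9*, the ligand most narrowly tied to interferon gamma, was far higher in AA than in either other library. Its 115 UMIs in Neg gave 0.965 CPM (0.797 to 1.16), 2504 UMIs in AA gave 18.5 CPM (17.7 to 19.2), and 274 UMIs in AA+Ab gave 1.96 CPM (1.74 to 2.21). The AA level was thus 19.1 times that of Neg (15.9 to 23.3) and the AA+Ab level was 9.41-fold lower than that of AA (8.31 to 10.7). AA+Ab was 2.03 times Neg (1.63 to 2.55). The 3 intervals of the levels did not overlap, and the order was Neg, AA+Ab, AA. With each cell weighted equally, the log2 ratio of AA+Ab to Neg was 0.24 in place of 1.02 and that of AA to Neg 3.34 in place of 4.26, and much of the AA level came from cluster 11, described below.

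*Cxcl9* ranked 12 of 19482 genes by the ratio of AA to Neg, counted from the highest, among genes with at least 20 UMIs over both libraries. By the ratio of AA+Ab to AA it ranked 28 of 19463, counted from the lowest. Its gene (ENSMUSG00000029417) lies at chr5:92321347-92328079 of GRCm38 on the minus strand.

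*Cxcl10*, which type I interferons and tumour necrosis factor also induce, differed less. It had 2369 UMIs in Neg, or 19.9 CPM (19.1 to 20.7), 4208 in AA, or 31.0 CPM (30.1 to 32.0), and 2118 in AA+Ab, or 15.2 CPM (14.5 to 15.8). The level was highest in AA and lowest in AA+Ab, with no overlap of the intervals. AA was 1.56 times Neg (1.48 to 1.64), AA+Ab was 2.05-fold lower than AA (1.94 to 2.16), and AA+Ab was 1.31-fold lower than Neg (1.24 to 1.39). Without the cells of cluster 11, a keratinocyte-like cluster chosen after seeing the data, the log2 ratio of AA to Neg was 0.27 in place of 0.64. Without its predicted doublets as well, 1 of which held 533 UMIs, it was -0.03, so the order of AA and Neg rested on these cells and doublets together. The gene (ENSMUSG00000034855) lies at chr5:92346638-92348889 on the minus strand, 18558 bases from *Cxcl9*, and *Art3* overlaps it on the plus strand with 414, 491 and 461 UMIs in Neg, AA and AA+Ab.

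*Cxcr3*, the receptor gene (ENSMUSG00000050232, chrX:101731535-101734269, minus strand), had few UMIs. It had 21 UMIs in Neg, or 0.176 CPM (0.109 to 0.269), 100 in AA, or 0.737 CPM (0.600 to 0.897), and 39 in AA+Ab, or 0.279 CPM (0.199 to 0.382). The AA level stood above the other two, whose intervals overlapped. AA was 4.19 times Neg (2.60 to 7.06), AA+Ab was 2.64-fold lower than AA (1.81 to 3.93), and a difference between AA+Ab and Neg was not detectable at this depth, with a ratio of 1.58 (0.910 to 2.84).

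Between AA and Neg, 2 of the 3 members, *Cxcl9* and *Cxcr3*, reached a CPM ratio of at least 2, as did 3.17% of the 19482 genes, and 0 of 3 had a ratio of at most 0.5, against 3.71% of genes. For AA+Ab against AA, 3 of 3 had a ratio of at most 0.5, as did 4.09% of the 19463 genes, and 0 of 3 reached 2, against 2.58%. The ratio of *Cxcl10* in that comparison was 0.489 with an interval of 0.464 to 0.515, which holds 0.5. Its log2 ratio was -0.89 with predicted doublets removed and -0.91 without the 5 highest cells, so 2 of 3 then had a ratio of at most 0.5, and with the class shares of Neg 1 of 3 did, *Cxcl9*. Between AA+Ab and Neg, 1 of 3, *Cxcl9*, reached 2, as did 2.03% of the 19487 genes, with 2 inside its interval and 0 of 3 reaching it with each cell weighted equally, and 0 of 3 were at most 0.5, against 3.64%.

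**Figure D1:**
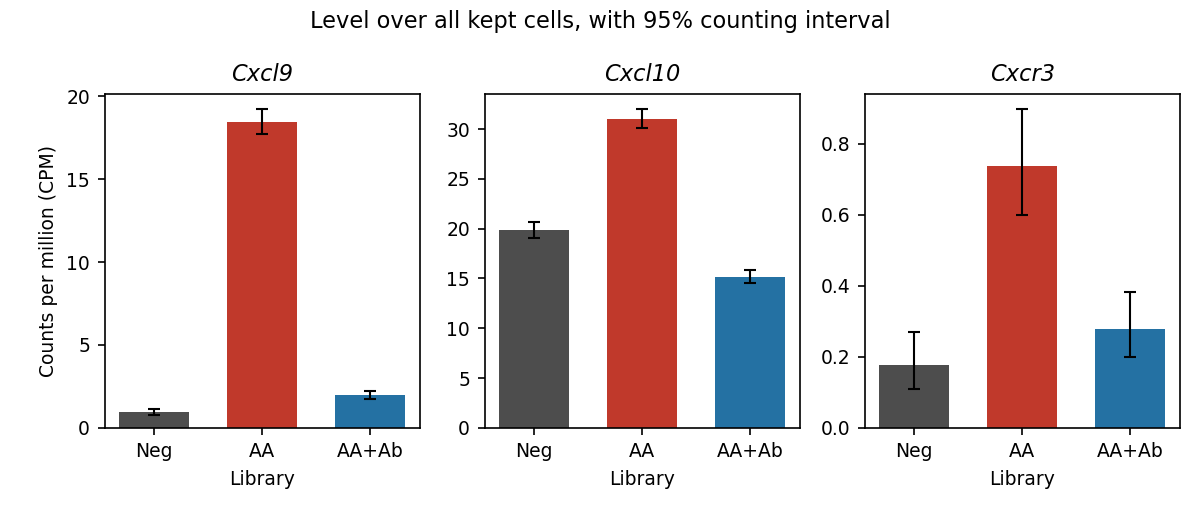
Level of *Cxcl9*, *Cxcl10* and *Cxcr3* in CPM over all kept cells of the Neg, AA and AA+Ab libraries, 1 library per bar, with 95% Poisson intervals for counting error and a separate axis per gene. AA is the highest bar for each gene, at 18.5, 31.0 and 0.737 CPM.

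Ligand mRNA was counted in few cells, and the median of the cells with a *Cxcl9* UMI was 1 UMI in each library. A *Cxcl9* UMI was found in 46 Neg cells (0.699%, interval 0.512 to 0.931), 155 AA cells (1.49%, 1.26 to 1.74) and 81 AA+Ab cells (0.824%, 0.655 to 1.02). With each cell thinned to 1000 UMIs, which left out 290, 86 and 158 shallower cells, the expected shares were 0.0761%, 0.340% and 0.102%. Found and thinned shares of *Cxcl9* were highest in AA. A *Cxcl10* UMI was found in 422 Neg cells (6.41%, 5.83 to 7.03), 504 AA cells (4.83%, 4.43 to 5.26) and 364 AA+Ab cells (3.70%, 3.34 to 4.09), and thinned shares were 1.10%, 1.07% and 0.698%. For *Cxcl10* the share did not follow the level in AA and Neg, so no order of these libraries is read from it.

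The 5 cells with the most *Cxcl9* held 49.6% of its UMIs in Neg, 60.7% in AA and 44.2% in AA+Ab. In AA the highest cell had 529 *Cxcl9* UMIs, against 28 in Neg and 57 in AA+Ab. *Cxcl10* was spread more widely, with 17.1%, 31.2% and 25.2% of its UMIs in the 5 highest cells of Neg, AA and AA+Ab. All 5 highest *Cxcl9* cells of AA lay in cluster 11, and 1 of them, with 266 *Cxcl9* and 533 *Cxcl10* UMIs, was a predicted doublet. Without the 5 highest cells of each library, the log2 ratio of *Cxcl9* between AA and Neg was 3.90 in place of 4.26, and between AA+Ab and AA it was -2.73 in place of -3.23.

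**Figure D2:**
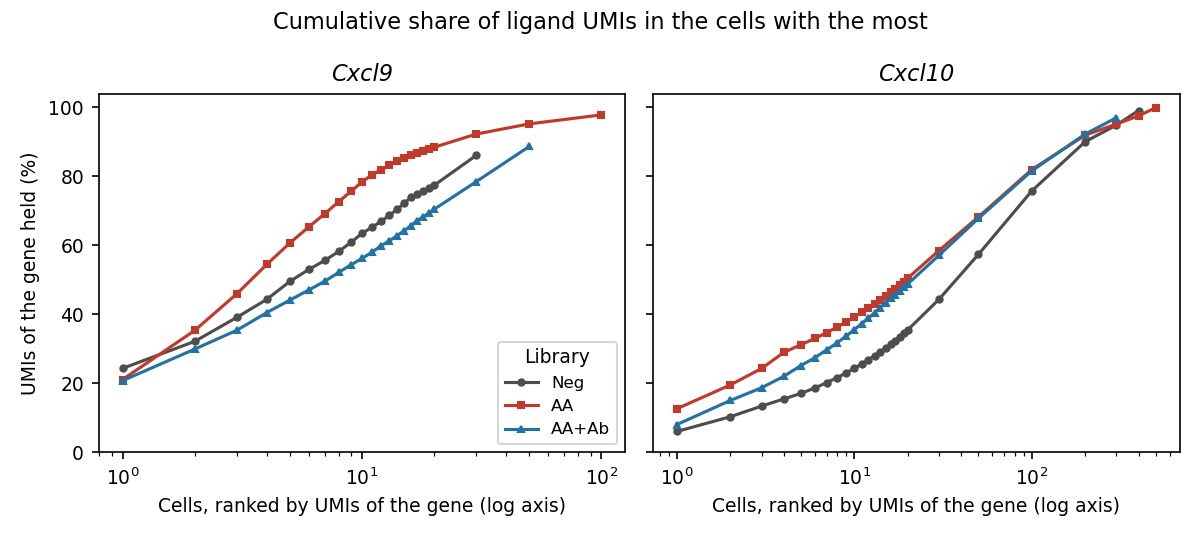
Cumulative share of *Cxcl9* and *Cxcl10* UMIs (percent) held by the cells with the most UMIs of the gene, against the number of cells on a log axis, for Neg, AA and AA+Ab. For *Cxcl9* the curves start at 24.3% in Neg and 21.1% in AA at 1 cell, and AA is the highest at 5 cells with 60.7%.

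The balance of the ligands also differed between libraries. Per *Cxcl10* UMI there were 0.0485 *Cxcl9* UMIs in Neg, 0.595 in AA and 0.129 in AA+Ab. Of the cells with a *Cxcl9* UMI, 22 of 46 in Neg, 50 of 155 in AA and 39 of 81 in AA+Ab also had a *Cxcl10* UMI, while among cells without *Cxcl9* the share with *Cxcl10* was 6.12%, 4.42% and 3.33%. In each library, cells with *Cxcl9* thus carried *Cxcl10* more often than cells without it, and whether cell depth has a part in this was not tested.

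Cells of all libraries were grouped into 29 clusters without using the members or the pathway genes, and named from marker genes. A name says that the cells resemble a type by these markers. Keratinocyte-like cells were 82.3%, 80.2% and 80.8% of the cells of Neg, AA and AA+Ab. Predicted doublets, 367, 908 and 826 cells, belong to no class but count in the library totals. Clusters without a name held 320, 275 and 241 cells, or 4.86%, 2.64% and 2.45%, with 2, 1 and 0 *Cxcl9* UMIs and 13, 4 and 22 *Cxcl10* UMIs.

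Keratinocyte-like cells held most ligand UMIs of every library. For *Cxcl9* they held 93 UMIs in Neg, or 0.910 CPM (0.735 to 1.12), 2123 in AA, or 18.8 CPM (18.0 to 19.6), and 224 in AA+Ab, or 1.91 CPM (1.67 to 2.18), which was 80.9%, 84.8% and 81.8% of all *Cxcl9* UMIs. AA was 20.6 times Neg (16.7 to 25.6) and AA+Ab was 9.80-fold lower than AA (8.53 to 11.3). Cluster 11 held 1697 of the 2123 UMIs of AA in 27 cells, and without it, chosen after seeing the data, the log2 ratios were 2.08 in place of 4.36 and -1.44 in place of -3.29. For *Cxcl10* they held 1911, 3030 and 1562 UMIs, or 18.7 CPM (17.9 to 19.6), 26.8 CPM (25.8 to 27.7) and 13.3 CPM (12.7 to 14.0). *Cxcl10* in AA was 1.43 times Neg (1.35 to 1.52) and AA+Ab was 2.01-fold lower than AA (1.89 to 2.13). Without cluster 11 the log2 ratio of *Cxcl10* between AA and Neg was -0.0452 in place of 0.52, so AA was no longer above Neg, and that between AA+Ab and AA was -0.59.

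T cell-like cells were the reference planned for free RNA of the ligands. For *Cxcl10* they did not serve as one, since they held single cells with up to 144, 19 and 4 UMIs in Neg, AA and AA+Ab and levels of 222, 30.2 and 12.3 CPM. A *Cxcl9* UMI was found in 37 of 5415, 127 of 8363 and 68 of 7944 keratinocyte-like cells of Neg, AA and AA+Ab (0.683%, 1.52% and 0.856%, median depths 14221, 11590 and 11862.5 UMIs), and in 1 of 105, 1 of 343 and 0 of 200 T cell-like cells (0.952%, 0.292% and 0%, with up to 1.5% allowed by that 0, median depths 5181, 3737 and 4103.5 UMIs). Thinned to 1000 UMIs, the *Cxcl9* shares were 0.0662%, 0.322% and 0.105% in keratinocyte-like cells, with 38, 17 and 26 cells left out, and 0.0645%, 0.0421% and 0% in T cell-like cells, with 1, 6 and 2 left out. The thinned *Cxcl9* share of keratinocyte-like cells was close to the reference in Neg and the higher of the 2 in AA, where the intervals of the found shares, 1.27 to 1.80 and 0.00738 to 1.61, overlapped. For *Cxcl10*, the thinned shares of keratinocyte-like cells, 1.05%, 0.972% and 0.642%, were close to or under those of T cell-like cells, 1.25%, 0.920% and 1.01%, and above those of gamma-delta T cell-like cells, 0.397%, 0.281% and 0%. No level of free *Cxcl10* RNA is read from these classes.

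Single clusters had higher thinned *Cxcl10* shares than both kinds of T cell-like cells. In cluster 4, a cycling cluster named hair matrix-like with *Shh* and *Wif1* among its leading genes, a *Cxcl10* UMI was found in 129 of 515 Neg cells, 140 of 562 AA cells and 119 of 738 AA+Ab cells, with thinned shares of 4.82%, 5.37% and 3.45%. Its *Cxcl10* level was 63.7 CPM (59.6 to 67.9) in Neg, 74.7 CPM (70.1 to 79.6) in AA and 48.9 CPM (45.7 to 52.3) in AA+Ab. Cluster 4 alone held 38.8%, 23.0% and 40.2% of all *Cxcl10* UMIs. *Cxcl9* in the same cells was 3.47 CPM (2.57 to 4.57), 14.8 CPM (12.8 to 17.0) and 6.09 CPM (4.99 to 7.36), so AA was 4.26 times Neg (3.11 to 5.94) and AA+Ab 2.43-fold lower than AA (1.90 to 3.11). In AA 1 cell held 68 of the 191 UMIs, and without the highest cell of each library, chosen after seeing the data, the log2 ratios were 1.74 in place of 2.09 and -0.79 in place of -1.28. Both ligands were highest in AA there, with a wider gap for *Cxcl9*.

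Cluster 12, keratinocyte-like cells led by *Krt35*, a keratin of the hair cortex and cuticle, carried *Cxcl10* with hardly any *Cxcl9*. *Cxcl10* was 85.0 CPM (76.6 to 94.0) in Neg, 79.3 CPM (70.3 to 89.3) in AA and 32.0 CPM (26.7 to 37.9) in AA+Ab. The levels of Neg and AA overlapped and that of AA+Ab was lower, 2.48-fold against AA (2.01 to 3.08) and 2.66-fold against Neg (2.18 to 3.27). *Cxcl9* had 5, 7 and 4 UMIs in these cells. In cluster 6, cycling keratinocyte-like cells with *Lgr5* and *Sox5* among their leading genes, *Cxcl10* was 17.5, 34.1 and 13.0 CPM, with AA at 1.95 times Neg (1.64 to 2.33), and *Cxcl9* had 6, 3 and 2 UMIs.

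Cluster 11 held most of the *Cxcl9* of AA. It was named outer bulge and root sheath-like, with 5 of 5 markers, and had *Krt6a* among its leading genes, with 101 cells in Neg, 327 in AA and 132 in AA+Ab. *Cxcl9* had 0 UMIs in Neg (interval up to 2.83 CPM), 1697 in AA, or 422 CPM (402 to 443), and 58 in AA+Ab, or 41.2 CPM (31.3 to 53.3). The exact interval of the ratio of AA to Neg begins at 149, and AA+Ab was 10.2-fold lower than AA (7.88 to 13.5). Both intervals take UMIs as independent, while 1 AA cell held 529 of the 1697, so they are too narrow. The cluster held 67.8% of all *Cxcl9* UMIs of AA and 21.2% of those of AA+Ab. Cluster 1 got the same name, with 3 of 5 markers, and was larger, with 546, 999 and 1266 cells. Its *Cxcl9* had 1, 25 and 3 UMIs, or 0.166, 2.87 and 0.276 CPM, in Neg, AA and AA+Ab.

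*Cxcl10* in cluster 11 had 3 UMIs in Neg, or 2.30 CPM (0.475 to 6.73), 1028 in AA, or 256 CPM (240.4 to 272), and 151 in AA+Ab, or 107 CPM (90.9 to 126). AA was 111 times Neg (37.9 to 539) and AA+Ab was 2.38-fold lower than AA (2.01 to 2.85). *Cxcl9* came from 0 of 101, 27 of 327 and 2 of 132 cells, and *Cxcl10* from 3, 17 and 4 cells. Of the 27 *Cxcl9* cells in AA, 10 also had *Cxcl10*, and 1 AA+Ab cell held 57 of the 58 *Cxcl9* and 148 of the 151 *Cxcl10* UMIs. The high levels were therefore those of a minority of the cluster's cells. Per *Cxcl10* UMI the cluster had 1.65 *Cxcl9* UMIs in AA and 0.384 in AA+Ab.

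Without cluster 11, chosen after seeing the data, *Cxcl9* was still higher in AA, with a log2 ratio of 2.65 against Neg and of -1.97 for AA+Ab against AA. Without the cluster's predicted doublets as well, these were 2.04 and -1.37. The outer bulge and root sheath markers, 5 of 5 found in every library, summed to 233 CPM in Neg, 332 in AA and 253 in AA+Ab, with *Postn* the most abundant. The part of these cell numbers in the library levels was not tested.

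Within cluster 11, the cells with a ligand UMI were set beside those without, over 16 listed interferon signal genes. Counting the genes whose intervals lay apart was chosen after these values were seen. In AA the 34 cells with a ligand UMI (median 19341 UMIs) had 9 of 16 genes higher than the 293 without (median 8269 UMIs) with intervals apart, and 0 lower. *Irf1*, a transcription factor induced by interferon gamma, was 334 CPM (292 to 380) against 83.4 CPM (73.9 to 93.8). *Ifng* had 1 UMI in the cells with a ligand and 0 in the others. Of the listed genes with at least 20 UMIs in these AA cells, 8 of 13 were higher and 0 lower, against 10.5% and 13.7% of 10849 genes, and the part of depth in this was not tested. In AA+Ab, 4 cells with a ligand UMI had 5 of 16 genes higher, *Irf1* among them, and in Neg 3 cells had 1 of 16 higher, *Nfkb1*. With at least 20 UMIs, these were 3 of 11 in AA+Ab and 1 of 10 in Neg, against 3.44% and 3.28% of genes.

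Cluster 16, keratinocyte-like cells led by the interferon-inducible genes *Iigp1*, *Ifi27l2a* and *Gbp2b*, came mostly from AA, with 7 Neg, 285 AA and 40 AA+Ab cells, and may reflect that library. It held 28, 129 and 25 *Cxcl9* UMIs and 115, 120 and 71 *Cxcl10* UMIs in Neg, AA and AA+Ab. Of these, 1 Neg cell held 28 and 101 and 1 AA+Ab cell held 25 and 70. The *Cxcl9* levels of Neg and AA+Ab in this cluster are thus those of 1 cell each, while *Cxcl10* came from 2 cells in each. In AA, 10 of 285 cells had *Cxcl9* and 22 had *Cxcl10*, at 36.6 CPM (30.5 to 43.4) and 34.0 CPM (28.2 to 40.7), and 1 AA cell held 96 of the 129 *Cxcl9* UMIs. In cluster 21, sebaceous gland-like cells, *Cxcl9* had 0 UMIs in Neg, 37 in AA and 4 in AA+Ab, from 0 of 27, 3 of 99 and 1 of 68 cells.

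**Figure D3:**
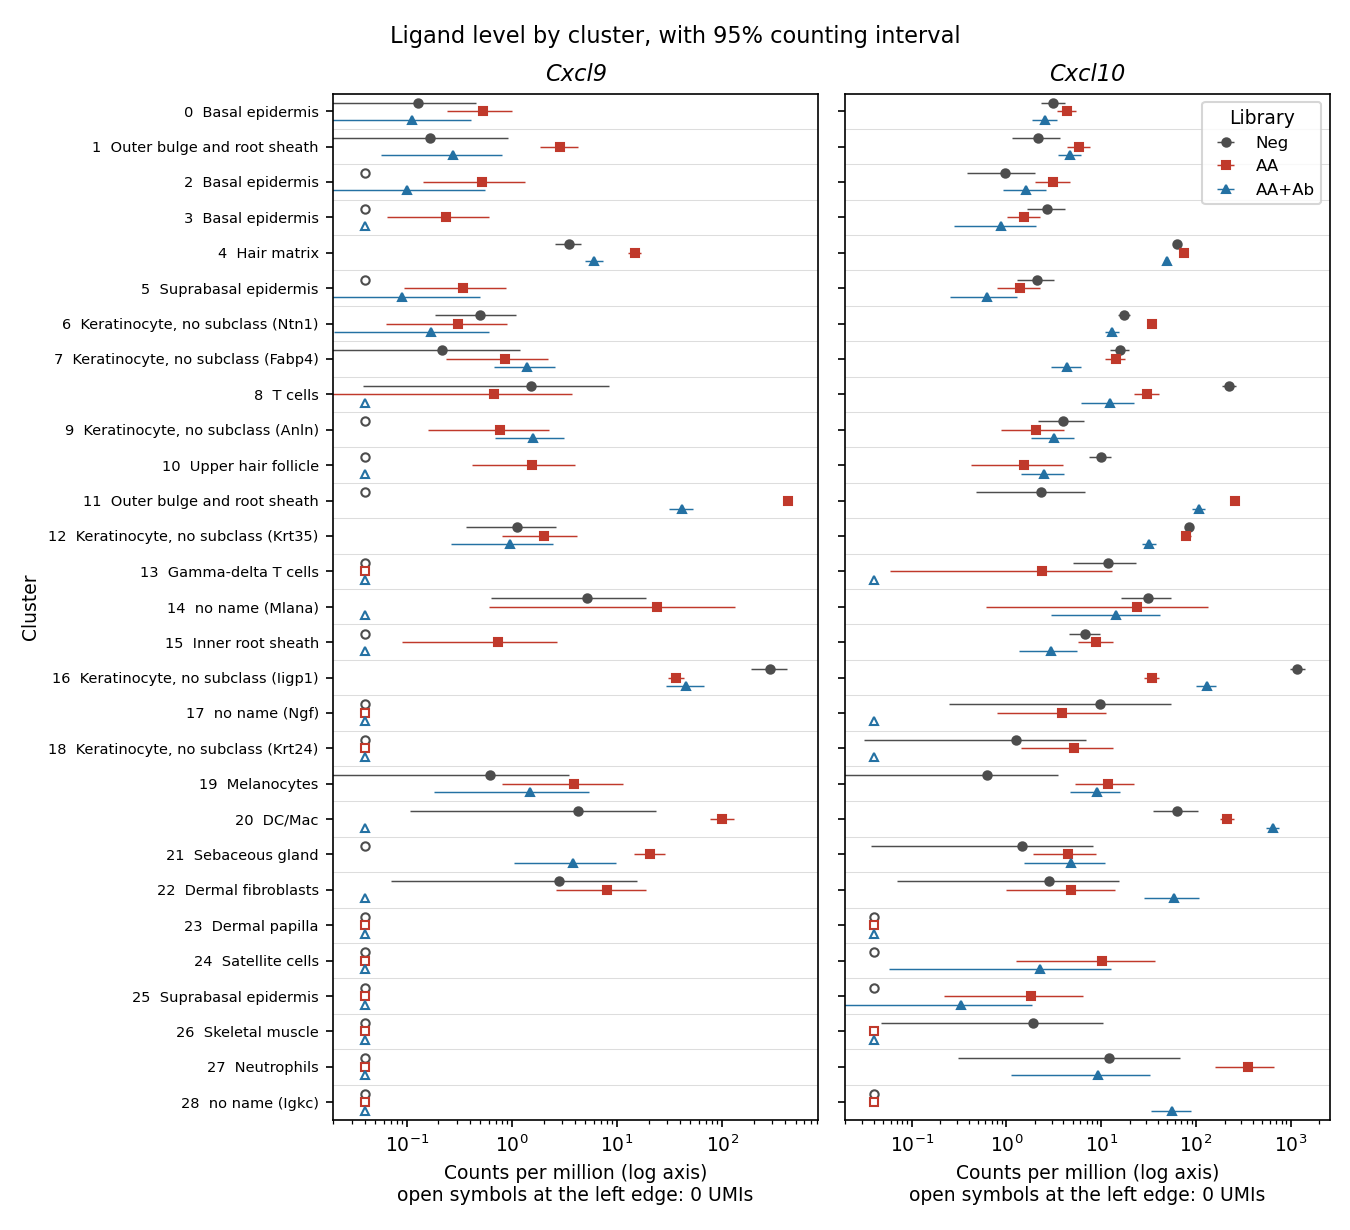
Level of *Cxcl9* and *Cxcl10* in CPM on a log axis in each of the 29 clusters of Neg, AA and AA+Ab, with 95% Poisson intervals for counting error, which may run past the left edge. Names mean cells like that type, a gene in brackets is the leading gene of a cluster without a subclass or name, and cluster 11 shows *Cxcl9* at 422 CPM in AA and 41.2 in AA+Ab with 0 UMIs in Neg.

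DC/Mac-like cells, the dendritic cells and macrophages that are a classical source of the ligands, numbered 40 in Neg, 101 in AA and 67 in AA+Ab. *Cxcl9* had 1 UMI in Neg, 61 in AA and 0 in AA+Ab, or 4.23 CPM (0.107 to 23.6), 101 CPM (77.0 to 129) and 0 CPM (up to 13.2). It came from 1, 5 and 0 cells, and 51 of the 61 UMIs of AA lay in 1 cell. AA was 23.8 times Neg with an interval of 4.11 to 955, a log2 ratio of 4.57 that was 1.97 at a mitochondrial limit of 5% and 6.22 with classes from marker UMIs, and the exact interval of the ratio of AA+Ab to AA ends at 0.135. A *Cxcl9* difference in this class is therefore mainly that of 1 cell. The 10 markers of the class, all found in every library, summed to 123 CPM in Neg, 254 in AA and 142 in AA+Ab, with *Cd74* the most abundant, and their part in the ligand levels was not tested.

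*Cxcl10* in DC/Mac-like cells had 15 UMIs in Neg, or 63.5 CPM (35.5 to 105), 129 in AA, or 213 CPM (178 to 253), and 179 in AA+Ab, or 642 CPM (552 to 743). The level was above that of keratinocyte-like cells in each library. Cells with a *Cxcl10* UMI were 5 of 40 (12.5%, 4.19 to 26.8), 16 of 101 (15.8%, 9.33 to 24.4) and 5 of 67 (7.46%, 2.47 to 16.6), at median depths of 3581, 4779 and 2710 UMIs, and thinned shares were 4.27%, 8.06% and 4.98%, with 6, 3 and 3 cells left out. The shares overlapped between the libraries, and 171 of the 179 UMIs of AA+Ab lay in 1 cell. Without the highest cell of each library, chosen after seeing the data, the log2 ratio of *Cxcl10* between AA+Ab and AA was -2.17 in place of 1.59, so its direction rests on that cell.

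Dermal fibroblast-like cells, 37, 85 and 25 cells in Neg, AA and AA+Ab, had 1, 5 and 0 *Cxcl9* UMIs and 1, 3 and 10 *Cxcl10* UMIs, and the 10 lay in 1 cell. The ratio of *Cxcl9* between AA and Neg was 2.88 with an interval of 0.322 to 136, so no difference was detectable at this depth. Dermal papilla-like cells had 0 UMIs of each ligand in 17, 89 and 55 cells, which allows shares of up to 17.6%, 3.37% and 5.45%. Gamma-delta T cell-like cells had 0 *Cxcl9* UMIs in 132, 96 and 176 cells and 8, 1 and 0 *Cxcl10* UMIs. Melanocyte-like cells had 1, 3 and 2 *Cxcl9* and 1, 9 and 12 *Cxcl10* UMIs. Neutrophil-, satellite cell- and skeletal muscle-like cells had 0 *Cxcl9* UMIs in each library and at most 9 *Cxcl10* UMIs, those 9 in 1 AA neutrophil-like cell.

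By level in AA, among named classes with a UMI, *Cxcl9* stood in the order DC/Mac-like (101 CPM), keratinocyte-like (18.8), fibroblast-like (8.04, 2.61 to 18.8), melanocyte-like (3.90, 0.804 to 11.4) and T cell-like cells (0.671, 0.0170 to 3.74). Keratinocyte-like and fibroblast-like cells overlapped, as did fibroblast-like with melanocyte-like and melanocyte-like with T cell-like cells. The first place of DC/Mac-like cells rests on the 1 cell with 51 of their 61 UMIs. Of the 2123 *Cxcl9* UMIs of keratinocyte-like cells in AA, 1697 lay in cluster 11, so their second place rests on that cluster. T cell-like cells had 146, 45 and 11 *Cxcl10* UMIs in Neg, AA and AA+Ab, of which 1 Neg cell held 144.

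*Cxcr3* was concentrated in T cell-like cells, which were 105 in Neg (1.60% of cells), 343 in AA (3.29%) and 200 in AA+Ab (2.03%). They held 11 of the 21, 78 of the 100 and 27 of the 39 *Cxcr3* UMIs. Their level was 16.7 CPM (8.36 to 30.0) in Neg, 52.4 CPM (41.4 to 65.3) in AA and 30.3 CPM (19.9 to 44.0) in AA+Ab. AA was the highest, with AA+Ab between and overlapping both. AA was 3.13 times Neg (1.66 to 6.52), AA+Ab was 1.73-fold lower than AA (1.10 to 2.79), and AA+Ab and Neg were not told apart at this depth, with a ratio of 1.81 (0.868 to 4.04). The log2 ratio of AA to Neg, 1.64, was 3.22 with classes from marker UMIs and 2.77 without the 5 highest cells, so its size depends on these choices. With a *Cxcr3* UMI in 9 Neg and 58 AA cells, leaving out 5 takes a larger part of Neg, so the 2.77 says little about the ratio.

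A *Cxcr3* UMI was found in 9 of 105 T cell-like cells of Neg (8.57%, 3.99 to 15.6), 58 of 343 of AA (16.9%, 13.1 to 21.3) and 24 of 200 of AA+Ab (12%, 7.84 to 17.3), at median depths of 5181, 3737 and 4103.5 UMIs. Thinned shares were 1.63%, 5.26% and 2.61%, with 1, 6 and 2 cells left out. In cluster 12, the reference without the receptor, a *Cxcr3* UMI was found in 0 of 164, 1 of 190 and 0 of 192 cells, at median depths of 24954, 17570 and 20495.5 UMIs, and thinned shares were 0%, 0.0465% and 0%. The zeros allow up to 1.83% in Neg and 1.56% in AA+Ab. *Cxcr3* in T cell-like cells thus stood above free RNA in all 3 libraries.

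The share of T cell-like cells differed between the libraries, and its part in the *Cxcr3* level over all cells was not tested. With the cell classes weighted as in Neg, the log2 ratio of *Cxcr3* between AA and Neg over all cells was 1.33 in place of 2.07. The 6 T cell markers, all found in every library, summed to 114 CPM in Neg, 91.3 in AA and 127 in AA+Ab, with *Cd3g*, which gamma-delta T cells also express, the most abundant. The 5 CD8 T cell markers, all found, summed to 28.7, 71.8 and 39.6 CPM, with *Ccl5* the most abundant in AA and *Nkg7* in the others. The 5 natural killer markers, all found, summed to 18.5, 16.5 and 22.3 CPM, with *Tyrobp* the most abundant. Of these lists, only the CD8 sum was highest in AA, as *Cxcr3* was, and its part was not tested.

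Outside T cell-like cells *Cxcr3* had few UMIs. Keratinocyte-like cells had 2, 7 and 2 UMIs in Neg, AA and AA+Ab, DC/Mac-like cells 1, 1 and 2, and gamma-delta T cell-like cells 0, 2 and 1. Fibroblast-, dermal papilla-, melanocyte-, neutrophil-, satellite cell- and skeletal muscle-like cells had 0 in each library. Predicted doublets held 6, 12 and 7 and unnamed clusters 1, 0 and 0. The levels in DC/Mac-like cells of Neg, 4.23 CPM (0.107 to 23.6), and AA+Ab, 7.18 CPM (0.869 to 25.9), overlapped those of T cell-like cells.

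Among T cell-like cells, those with a *Cd8a* or *Cd8b1* UMI and no *Cd4* UMI numbered 12 in Neg, 190 in AA and 52 in AA+Ab, and 4, 37 and 16 of them had a *Cxcr3* UMI. Their *Cxcr3* level was 96.5 CPM (35.4 to 210.1) in Neg, 62.6 CPM (46.6 to 82.3) in AA and 72.9 CPM (43.2 to 115) in AA+Ab. Within CD8-type cells the 3 libraries overlapped, and a higher level in AA was not detectable. Cells with *Cd4* only numbered 15, 24 and 43, and 0, 5 and 1 had a *Cxcr3* UMI, at 0 CPM (up to 33.8), 34.0 CPM (11.1 to 79.4) and 4.77 CPM (0.121 to 26.6). By level, the *Cd4* cells stood below the *Cd8* cells in Neg and AA+Ab, while in AA the intervals of both kinds overlapped. By share of cells with a *Cxcr3* UMI, the intervals lay apart in AA+Ab only. In Neg the Clopper-Pearson interval reached 21.8% for *Cd4* cells and began at 9.92% for *Cd8* cells, whose level rests on 6 UMIs. Cells with neither transcript numbered 78, 120 and 105, at 10.3 CPM (3.34 to 24.0), 43.9 CPM (26.8 to 67.7) and 18.4 CPM (7.93 to 36.2). By level AA stood above Neg there, from 20 and 5 UMIs. The shares of these cells with a *Cxcr3* UMI, 12.5% (7.17 to 19.8) in AA and 6.41% (2.11 to 14.3) in Neg, overlapped.

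T cell-like cells with at least 2 natural killer genes numbered 18, 20 and 13, and 4, 5 and 2 of them had a *Cxcr3* UMI. In AA 9 further cells had UMIs of both *Cd8* and *Cd4* genes, 1 of them with *Cxcr3*. CD8-type cells numbered 12 in Neg, 190 in AA and 52 in AA+Ab, out of 6582, 10433 and 9832 kept cells. The part of their number in the *Cxcr3* level of the libraries was not tested.

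**Figure D4:**
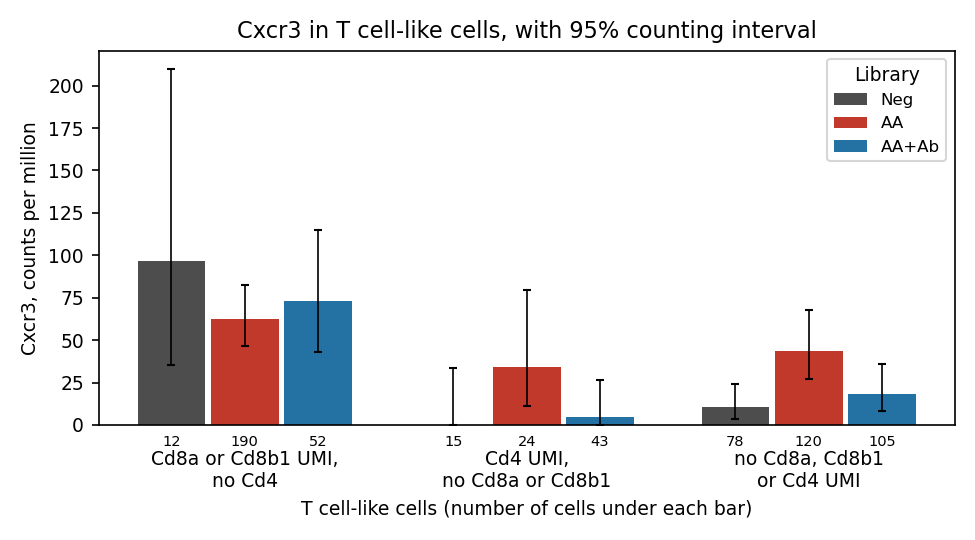
*Cxcr3* level in CPM in T cell-like cells of Neg, AA and AA+Ab, split by UMIs of *Cd8a* or *Cd8b1* and of *Cd4*, with 95% Poisson intervals for counting error and the number of cells under each bar. In cells with *Cd8a* or *Cd8b1* the 3 libraries lie between 62.6 and 96.5 CPM with overlapping intervals.

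T cell-like cells with a *Cxcr3* UMI were set beside those without over 16 genes of T cell state, as a description and with the same count of intervals apart. In Neg, 9 cells with *Cxcr3* (median 7247 UMIs) had 8 of 16 genes higher than the 96 without (median 5120 UMIs), with intervals apart, and 3 lower. In AA+Ab, 24 cells with (median 4742 UMIs) had 6 higher than the 176 without (median 4028 UMIs) and 2 lower. In AA, 58 cells with (median 4698 UMIs) and 285 without (median 3512 UMIs) overlapped in 15 of 16 genes. Of the listed genes with at least 20 UMIs, 7 of 13 in Neg, 1 of 15 in AA and 6 of 14 in AA+Ab were higher, against 3.52%, 1.97% and 3.55% of all such genes, and 3, 0 and 2 were lower, against 3.52%, 2.17% and 3.95%.

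*Tbx21*, the transcription factor of type 1 T cells that drives *Cxcr3*, was 226 CPM (127 to 373) with and 84.6 CPM (62.8 to 112) without *Cxcr3* in Neg, and 354 CPM (263 to 465) and 152 CPM (126 to 183) in AA+Ab. In AA it was 505 CPM (428 to 591) and 472 CPM (433 to 513), so that cells without a *Cxcr3* UMI also carried much *Tbx21* there. *Cd8a* was 196 CPM (104 to 336) against 18.6 CPM (9.29 to 33.3) in Neg, 308 CPM (249 to 377) against 283 CPM (253 to 315) in AA, and 423 CPM (324 to 543) against 109.6 CPM (87.2 to 136) in AA+Ab. *Gzmb*, a cytotoxic granule protease, was the 1 gene apart in AA, at 452 CPM (380.1 to 534) against 217 CPM (191 to 245).

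*Gata3*, a factor of type 2 T cells, ran the other way, at 90.6 CPM (33.2 to 197) with and 447 CPM (395 to 504) without *Cxcr3* in Neg, and 132 CPM (79.3 to 206) and 418 CPM (373 to 467) in AA+Ab. In AA it was 203 CPM (156 to 261) and 279 CPM (250.1 to 311), with overlapping intervals. Also lower with *Cxcr3*, with intervals apart, were *Cxcr6* and *Ccr7* in Neg and *Cd4* in AA+Ab. *Cxcr6* in Neg was 166 CPM (82.9 to 297) with and 374 CPM (326 to 427) without *Cxcr3*. *Gzmb* in AA+Ab overlapped, at 125 CPM (74.0 to 197) and 114 CPM (90.8 to 140). *Cxcr3* UMIs thus went with *Tbx21*, *Ifng*, *Cd8a*, *Cd8b1* and *Nkg7* in Neg, over 9 cells, and in AA+Ab, but not with every listed gene of this kind. The T cell-like cells of AA carried those 5 transcripts with or without a *Cxcr3* UMI. Whether these contrasts differ between the libraries was not tested.

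The signal that induces the ligands was read from 16 listed genes, of which 15 had enough UMIs in each comparison and *Ifnb1* had 0, 3 and 6 in Neg, AA and AA+Ab. Between AA and Neg, 5 of 15 reached a ratio of 2, as did 3.17% of all genes, and 0 were at most 0.5, against 3.71%, with a median ratio of 1.44 against 0.957 over all genes. *Ifng*, which encodes interferon gamma, was 0.503 CPM in Neg, 5.56 in AA and 1.94 in AA+Ab, and AA was 11.05 times Neg (8.49 to 14.6). *Irf7*, at 1.98, 6.14 and 2.72 CPM, was also past the ratio of 2, as were *Irf9* at 2.12 (1.98 to 2.27) and *Stat2* at 2.04 (1.91 to 2.17). The receptor genes *Ifngr1* and *Ifngr2* were at 1.24 (1.22 to 1.27) and 0.892 (0.844 to 0.943).

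In the comparison of AA+Ab with AA, 3 of these 15 genes were at most 0.5, against 4.09% of all genes, and 0 reached 2, against 2.58%, with a median ratio of 0.680 against 1.00 over all genes. Among them were *Ifng* at 0.349 (0.303 to 0.401) and *Irf7* at 0.443 (0.392 to 0.501). Set against Neg, AA+Ab had 1 of 15, *Ifng*, that reached 2 at 3.85 (2.90 to 5.19), against 2.03% of all genes, with a median of 1.16 against 0.962. *Ifng* was thus highest in AA, as *Cxcl9* and *Cxcr3* were, and had the order of *Cxcl9*, with AA+Ab between Neg and AA.

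Of 12 genes of receptor signalling, ligand processing and scavenging, 2 reached a ratio of 2 between AA and Neg and 0 were at most 0.5, against 3.17% and 3.71% of all genes, with a median of 1.05. *Pf4*, whose product CXCL4 also binds CXCR3 variants, had 9, 125 and 22 UMIs in Neg, AA and AA+Ab and was 12.2 times Neg in AA (6.23 to 27.3). *Socs1*, a brake on interferon signalling, was 5.08, 10.3 and 6.83 CPM, with AA at 2.02 times Neg (1.84 to 2.23). *Gnai2*, the G protein subunit used by chemokine receptors, was 126, 133 and 139 CPM, and *Dpp4*, the peptidase that trims the ligands, 16.7, 13.7 and 15.1 CPM. *Ackr3*, a scavenging receptor that binds CXCL11, was 65.7, 66.2 and 69.1 CPM. Between AA and Neg, 10 of the 12 thus lay between ratios of 0.5 and 2, as did 18142 of the 19482 genes. Between AA+Ab and AA 1 of 12, *Pf4*, was at most 0.5, against 4.09% of all genes, with a median of 1.01. Set against Neg, *Pf4* in AA+Ab was the 1 of 12 that reached 2, against 2.03% of all genes, at 2.09 with an interval of 0.923 to 5.15 that holds 1, and the median was 1.08.

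Other pairs of chemokine and receptor that attract lymphocytes to skin differed too. Of 14 genes with enough UMIs, 8 reached a ratio of 2 between AA and Neg, against 3.17% of all genes, and 0 were at most 0.5, against 3.71%, with a median of 2.81 against 0.957. *Ccl5* was 11.3, 44.8 and 17.0 CPM in Neg, AA and AA+Ab. *Ccl8*, a ligand of CCR8 in mice, was 0.554, 5.41 and 0.158 CPM, and *Cxcr6* 4.43, 11.5 and 6.44 CPM. In each of these 3 genes AA was the highest library. The pair *Cxcl12* and *Cxcr4* was 16.7, 24.4 and 23.3 CPM and 2.47, 2.76 and 3.44 CPM, with AA+Ab at 0.957 (0.912 to 1.01) and 1.25 (1.09 to 1.43) times AA.

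Of 15 of these genes compared between AA+Ab and AA, 4 were at most 0.5, *Ccl4*, *Ccl5* and *Ccl8* among them, and 1, *Ccl22*, reached 2, against 4.09% and 2.58% of all genes, with a median of 0.808 against 1.00. Against Neg, 3 of 15 in AA+Ab reached 2 and 1 was at most 0.5, against 2.03% and 3.64% of all genes, with a median of 1.39 against 0.962. The skin chemokine gene *Ccl27a* was 588, 463 and 557 CPM, lowest in AA. *Cxcr3* and its ligands were thus not alone among attracting pairs in being highest in AA. Of the 16 genes of T cell state, counted over all cells, 8 reached 2 between AA and Neg and 1 was at most 0.5, against 3.17% and 3.71% of all genes, with a median of 2.12 against 0.957. Between AA+Ab and AA 2 reached 2 and 6 were at most 0.5, against 2.58% and 4.09%, with a median of 0.633 against 1.00. Between AA+Ab and Neg 4 reached 2 and 0 were at most 0.5, against 2.03% and 3.64%, with a median of 1.48 against 0.962.

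Genes most like each member were sought among 14919 genes with at least 200 UMIs, by Pearson correlation of log2 CPM, with 5 added, over 82 sums of a cluster in a library, leaving out 5 sums under 100000 UMIs. For *Cxcl9* these were *Gbp2b* (r 0.612), *Ifi44* (0.608), *A830018L16Rik* (0.602), *Ubd* (0.598) and *Iigp1* (0.581). For *Cxcl10* they were *E230029C05Rik* (r 0.614), *Relt* (0.609), *Nup210* (0.606), *Apobec1* (0.595) and *Itpk1* (0.590). The lists of the ligands shared no gene, and the ligands themselves had r 0.570 with each other.

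For *Cxcr3*, whose own 135 UMIs are under the minimum set for the other genes, the genes most like it were *Cd6* (r 0.943), *Ms4a4b* (0.941), *Ifng* (0.937), *Pdcd1* (0.937) and *Ccr8* (0.934). The sums share libraries and depth, and the *Cxcr3* values rest mainly on the T cell-like cluster. No theme of these genes was tested, and *Gbp2b* and *Iigp1* also lead cluster 16, which came mostly from AA.

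The promoters of the ligands are shown because both genes were highest in AA over all cells, with the exception for *Cxcl10* without cluster 11 and its doublets given above. The 250 bases before the start of each gene, from RefSeq on GRCm38.p6, were found for the 3 analysed members. They were searched on both strands for GAAA, NN and GAAA in a row, like an interferon-stimulated response element, and for GGGA, NNNN and CC in a row, like a kappaB site, where N is any base. Of 32851 promoters of this length, 2.98% and 17.6% hold these letters. Capitals mark the matches in *Cxcl9* at chr5:92328080-92328329 and *Cxcl10* at chr5:92348890-92349139, both on the minus strand and written 5′ to 3′.
Cxcl9: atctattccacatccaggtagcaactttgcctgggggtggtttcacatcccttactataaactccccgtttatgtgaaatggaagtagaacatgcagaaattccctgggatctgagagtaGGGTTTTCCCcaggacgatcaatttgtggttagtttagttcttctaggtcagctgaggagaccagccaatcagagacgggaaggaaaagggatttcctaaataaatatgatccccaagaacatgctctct
Cxcl10: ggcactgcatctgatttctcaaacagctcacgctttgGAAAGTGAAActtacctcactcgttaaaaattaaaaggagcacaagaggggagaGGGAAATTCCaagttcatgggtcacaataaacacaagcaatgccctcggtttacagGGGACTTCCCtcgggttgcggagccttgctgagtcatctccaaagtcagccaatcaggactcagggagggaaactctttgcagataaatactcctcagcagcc
The window of *Cxcl9* holds 1 match to the kappaB-like letters, which begins 130 bases before the start. That of *Cxcl10* holds 1 match to the response element-like letters at 213 bases and 2 to the kappaB-like letters at 159 and 103 bases before the start, and no 2 of its matches overlap. The window of *Cxcr3*, whose RefSeq start lies inside the GENCODE coordinates given above, holds neither. Another motif, not named here, was also searched and had 0 matches in the 3 windows. A match is a description of letters and not a binding site.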

How the data were processed

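The deposited values are UMI counts, which the authors made with Cell Ranger 7.2.0 on mm10 from 10x 3′ v3.1 libraries, without normalization. Clusters were made with scanpy 1.11.5, leidenalg 0.10.2, igraph 0.11.9 and scikit-learn 1.9.0, intervals with scipy 1.17.1, tables with pandas 2.3.3 and numpy 2.4.6, and figures with matplotlib 3.10.9, all in Python 3.11.15. The members and lists were chosen with earlier results of these data known.

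Cells of the 3 libraries were clustered together on 2000 variable genes, with 46 members and listed genes barred, 30 principal components, 20 neighbours and a resolution of 0.8. Doublets were predicted from 2 simulated doublets per cell in 20 principal components, at 0.8% per 1000 barcodes. A marker counted when found in 25% of a cluster's cells at 2 times the CPM of other cells, with 5 added, and a name needed 3 markers and 50% of its list. Keratinocytes needed 6 markers in 50% of cells. A cluster got no name when its median depth was under 0.1 of its library's, or under 0.333 with no marker among its 10 leading genes, or when 2 classes passed alike. These thresholds were set after the clusters and the members' UMIs in them had been seen, in 2 versions, and without the second cluster 11 would have had no subclass name. No class value depends on that. Cortex and cuticle-like cells, planned as the *Cxcr3* reference, could not be named, so cluster 12 stands in.

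Genes named are the members, the fixed lists and the 5 genes most like each member. Leading genes of clusters and the gene overlapping *Cxcl10* were named after their values were seen. Which clusters to describe, leaving out cluster 11 or 4 or the highest cell, and counting genes with intervals apart were chosen after these values were seen. The interval code was run on simulated counts. With 1 library per group no test was made. Coordinates are from GENCODE M21. The alternatives are a mitochondrial limit of 5%, 500 genes, doublets, the denominator, cell and class weights, the 5 highest cells or the highest cell, other resolutions of 0.4 and 1.5, classes from marker UMIs, and leaving out cluster 11 or cluster 4, with or without its predicted doublets.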

Additional observations from a re-analysis of the deposited data

Results flagged for a closer look

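*Cxcl10* ratios lay on opposite sides of 1 in different cell classes. This singled them out, and the differences were not tested. Between AA+Ab and AA, the ratio was 3.02 in DC/Mac-like cells and 12.2 in dermal fibroblast-like cells, against 0.499 in keratinocyte-like cells and 0.408 in T cell-like cells. In AA+Ab, 1 DC/Mac-like cell held 171 of 179 UMIs and 1 fibroblast-like cell all 10. Without the highest cell of each library, the log2 ratio in DC/Mac-like cells was -2.17 in place of 1.59. Between AA+Ab and Neg, the ratio was 10.1 in DC/Mac-like cells and 21.1 in fibroblast-like cells, against 0.713 in keratinocyte-like cells and 0.0555 in T cell-like cells, where 1 Neg cell held 144 of 146 UMIs. Between AA and Neg, it was 3.35 in DC/Mac-like cells and 1.43 in keratinocyte-like cells, against 0.136 in T cell-like cells, with the same Neg cell.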

How the results depend on the processing

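No paired analysis was possible because each group is 1 library. Over all cells, the log2 ratios of the members kept their sign in 98 of 99 values under the alternatives, and in the classes and cluster 4 in 132 of 135. Of the 99, 66 stayed within the counting interval of the main value, and of the 135, 110 did.

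The alternatives of leaving out a cluster or the highest cell were chosen after seeing the data. Without cluster 11 and its predicted doublets, *Cxcl10* went to -0.0324 for AA/Neg, from 0.64, which reversed its sign, to -0.45 for AA+Ab/AA and -0.48 for AA+Ab/Neg, and *Cxcl9* to 2.04, -1.37 and 0.67. With those doublets kept, *Cxcl10* went to 0.27, -0.76 and -0.50, without a reversal, and *Cxcl9* to 2.65, -1.97 and 0.68. In keratinocyte-like cells without cluster 11, *Cxcl10* reversed its sign, to -0.0452 for AA/Neg, from 0.52, and went to -0.59 for AA+Ab/AA and -0.63 for AA+Ab/Neg, and *Cxcl9* to 2.08, -1.44 and 0.64. Without cluster 4 and its doublets, *Cxcl10* went to 1.00, -1.55 and -0.55, and *Cxcl9* to 5.29 for AA/Neg and -4.08 for AA+Ab/AA. With those doublets kept, *Cxcl10* went to 0.93 (AA/Neg) and -1.35 (AA+Ab/AA), and *Cxcl9* to 4.93 and -3.78. Without the highest cell of each library, DC/Mac-like *Cxcl10* reversed its sign, to -2.17 for AA+Ab/AA, from 1.59, and to -0.21 for AA+Ab/Neg, from 3.34, and *Cxcl9* in cluster 4 went to -0.79 for AA+Ab/AA. Without the 5 highest cells, *Cxcl10* went to 0.37, -0.91 and -0.54 over all cells and to 0.28 (AA/Neg) and -0.66 (AA+Ab/Neg) in keratinocyte-like cells, *Cxcl9* to 3.90 (AA/Neg) and -2.73 (AA+Ab/AA) over all cells and 4.01 and -2.73 in keratinocyte-like cells, and *Cxcr3* to 2.77 (AA/Neg) in T cell-like cells.

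With each cell weighted equally, *Cxcl9* was 3.34 (AA/Neg) and 0.24 (AA+Ab/Neg) and *Cxcl10* 0.25 and -0.75. With Neg class shares, *Cxcr3* was 1.33 (AA/Neg). With predicted doublets removed, *Cxcl10* was 0.47 (AA/Neg) and -0.89 (AA+Ab/AA). With doublets kept in their class, it was 0.69 (AA/Neg) and -1.13 (AA+Ab/AA) in keratinocyte-like cells and 1.14 (AA+Ab/AA) in DC/Mac-like cells. At a mitochondrial limit of 5%, DC/Mac-like *Cxcl9* was 1.97 (AA/Neg) and *Cxcl10* 1.97 (AA+Ab/AA). With classes from marker UMIs, *Cxcl10* was 3.65 (AA/Neg), 1.08 (AA+Ab/AA) and 4.73 (AA+Ab/Neg) in DC/Mac-like cells and 0.41 (AA/Neg) and -0.64 (AA+Ab/Neg) in keratinocyte-like cells, and *Cxcr3* 3.22 (AA/Neg) in T cell-like cells. The cause of these moves was not tested.

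Thinning takes UMIs away, so lower shares follow from the step itself and are not read as a result. In Neg, AA and AA+Ab the thinned shares over all cells were 0.0761%, 0.340% and 0.102% for *Cxcl9*. They were 1.10%, 1.07% and 0.698% for *Cxcl10* and 0.0416%, 0.191% and 0.0662% for *Cxcr3*. In keratinocyte-like cells the shares were 0.0662%, 0.322% and 0.105% for *Cxcl9* and 1.05%, 0.972% and 0.642% for *Cxcl10*, and for *Cxcr3* in T cell-like cells 1.63%, 5.26% and 2.61%.

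No value came from leaving out the 5 highest cells in DC/Mac-like or fibroblast-like cells, nor from leaving out the highest cell in fibroblast-like cells or for *Cxcl9* in DC/Mac-like cells, so how far those ratios rest on 1 cell is not in these counts. None came for *Cxcl9* in AA+Ab of these classes, where it has 0 UMIs. Few cells per class and few cells per ligand limit the depth, and the spread between mice is unknown.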
